A study of Mus musculus with 6 samples.

Results

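The genes described here encode the proteins that coat lipid droplets and the enzymes and cofactors that release fatty acids from them: Plin2, Plin3, Plin4, Pnpla2, Lipe, Mgll, Abhd5, Hilpda, G0s2 and Fabp5. They were chosen by name, with earlier results of these data known, and all 10 occur, once each, among the 54532 genes of the table. RNA was sequenced from 3 libraries labelled PP2Ac knockdown (titles sh2) and 3 libraries labelled control (titles shc), all assigned to MIN6, a mouse beta cell line derived from an insulinoma. PP2Ac denotes the catalytic subunit of PP2A, a phosphatase acting on serine and threonine. The series title concerns lipid-induced damage to beta cells, yet the labels name no fatty acid, glucose or other treatment for either group, and no vector, promoter, clone or culture for the knockdown. The extraction protocol in the labels speaks of frozen tissue although the samples are labelled a cell line. All knockdown libraries carry the title sh2 and all control libraries shc. Loss of PP2Ac and any other effect particular to sh2 therefore cannot be told apart. The question was whether the droplet and lipolysis transcripts differ between knockdown and control cells.

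Neutral lipid is stored in cells as triglyceride inside droplets surrounded by a phospholipid monolayer and by perilipins. Lipolysis proceeds in steps: adipose triglyceride lipase (Pnpla2) with its coactivator Abhd5 removes the first fatty acid, hormone-sensitive lipase (Lipe) acts on the diglyceride, and monoglyceride lipase (Mgll) completes the reaction. G0s2 and Hilpda are small inhibitors of the Pnpla2 product. In beta cells droplets hold fatty acids taken up in excess, and perilipin 2 is the coat protein best known there.

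Recovered reads ran from 14614737 to 16030939 per library, and PP2Ac is encoded by 2 genes, Ppp2ca for the alpha form and Ppp2cb for the beta form. Ppp2ca averaged 10.8 ± 0.617 FPKM in knockdown and 37.6 ± 4.33 FPKM in control (SD, n = 3 each, limma adjusted p = 5.35e-06). Ppp2cb averaged 86.9 ± 3.45 FPKM in knockdown and 101 ± 10.6 FPKM in control (SD, n = 3 each, limma adjusted p = 0.066), which did not pass the threshold of 0.05. Its 3 knockdown libraries still lay below its 3 control libraries, at 82.9 to 89.0 against 90.8 to 112 FPKM. FPKM is the number of reads scaled for gene length and library size. Its levels can be compared between genes only as far as that length, of all exons joined, fits the transcripts expressed. Against the MIN6 label, Ins1, Ins2, Nkx6-1, Slc2a2, Pcsk1 and Pcsk2, 6 of 10 beta cell markers, had no read in any library. Another 2 of the 10 had a mean of at least 1 FPKM, and both were higher in knockdown (limma adjusted p below 0.05). The summed level of the 10 was 7.99 to 9.57 FPKM in knockdown and 2.89 to 4.65 FPKM in control. The libraries are therefore called by their labels only. Of 8 adipocyte markers none reached a mean of 1 FPKM, with Cfd, Cidea and Lep at 0 throughout. The sum of the 8, in knockdown mostly Plin1, was 1.05 to 1.40 FPKM in knockdown and 0.0936 to 0.173 FPKM in control. The sum of 8 macrophage markers was 44.6 to 53.5 FPKM in knockdown and 34.7 to 38.4 FPKM in control, with 3 of the 8 at a mean of 1 FPKM or more and Adgre1 at 0. Of those 3, 2 were higher in knockdown and 1 was lower (limma adjusted p below 0.05). The sum of 8 stromal markers, mostly Vim, was 999 to 1140 FPKM in knockdown and 413 to 471 FPKM in control, with Lum at 0. At a mean of at least 1 FPKM were 5 of them, and all 5 were higher in knockdown (limma adjusted p below 0.05). Among all genes with such a mean, 33.3% were higher and 29.1% lower. Whether these marker differences have a part in the results below was not tested. In bulk RNA, fewer cells of a kind and less RNA per cell cannot be told apart.

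Sequences before the starts of the 6 members that were lower in knockdown are shown. Whether these genes share a regulator was not tested. Promoters of 9 of the 10 members, with 12 annotated starts, were found in RefSeq (GRCm38.p6, the build family of the deposited coordinates). The 250 bases before the start are given 5′ to 3′ on the gene's own strand, with capitals marking the core of the hypoxia response element, ACGTG or GCGTG, on either strand. That element was searched because Hilpda is a known target of hypoxia-inducible factors.
Plin2 (chr4:86670060-86670309, minus strand): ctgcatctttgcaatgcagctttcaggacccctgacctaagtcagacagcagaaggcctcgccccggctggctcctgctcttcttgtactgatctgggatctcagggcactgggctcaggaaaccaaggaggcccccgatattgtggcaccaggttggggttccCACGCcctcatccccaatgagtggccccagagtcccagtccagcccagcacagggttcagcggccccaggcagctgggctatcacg
Plin3 (chr17:56290512-56290761, minus strand): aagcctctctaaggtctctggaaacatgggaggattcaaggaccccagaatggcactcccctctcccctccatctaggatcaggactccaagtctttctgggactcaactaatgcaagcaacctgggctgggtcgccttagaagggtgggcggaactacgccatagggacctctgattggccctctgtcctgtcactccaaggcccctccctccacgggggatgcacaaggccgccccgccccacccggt
Plin4 (chr17:56109783-56110032, minus strand): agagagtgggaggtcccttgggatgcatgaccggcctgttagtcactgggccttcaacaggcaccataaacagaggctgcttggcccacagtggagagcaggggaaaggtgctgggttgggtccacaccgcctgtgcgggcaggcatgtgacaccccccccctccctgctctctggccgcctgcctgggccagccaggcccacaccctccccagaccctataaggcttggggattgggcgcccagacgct
Pnpla2 (chr7:141454938-141455187, plus strand): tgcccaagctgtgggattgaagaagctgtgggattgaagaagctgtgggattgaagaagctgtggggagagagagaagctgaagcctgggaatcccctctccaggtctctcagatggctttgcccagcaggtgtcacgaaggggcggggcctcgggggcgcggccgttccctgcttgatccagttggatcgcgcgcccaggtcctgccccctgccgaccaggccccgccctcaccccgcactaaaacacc
Abhd5 (chr9:122351366-122351615, plus strand): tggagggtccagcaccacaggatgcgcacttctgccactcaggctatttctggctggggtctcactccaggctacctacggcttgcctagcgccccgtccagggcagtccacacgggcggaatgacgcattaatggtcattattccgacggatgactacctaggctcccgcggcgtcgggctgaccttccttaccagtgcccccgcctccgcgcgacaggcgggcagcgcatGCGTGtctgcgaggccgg
Hilpda (chr6:29272376-29272625, plus strand): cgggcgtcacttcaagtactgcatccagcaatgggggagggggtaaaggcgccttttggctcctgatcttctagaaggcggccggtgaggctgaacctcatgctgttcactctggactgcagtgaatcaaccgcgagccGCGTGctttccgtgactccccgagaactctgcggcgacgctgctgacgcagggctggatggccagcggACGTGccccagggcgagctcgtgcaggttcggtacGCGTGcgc
The RefSeq start of Plin3 lies 2362 bases inside the deposited gene, so its window is within the gene, and the Hilpda sequence lies before its downstream start, 138 bases inside the gene. The starts of Lipe, whose windows are not shown, lie 2723 and 8598 bases inside that gene, so these windows are within it too. The printed Hilpda sequence held ACGTG once, at -43 to -39 from the start, and GCGTG at 2 further places. The upstream Hilpda start is the deposited start of the gene, and the 250 bases before it held neither core. The Hilpda window printed is thus the one that holds the cores. Plin2 had GCGTG at -86 to -82 on the opposite strand and Abhd5 had it at -18 to -14, while the windows of Plin3, Plin4 and Pnpla2 held neither core. Members that were not called lower held the cores too. Before its upstream start Lipe had GCGTG at 1 place and ACGTG on both strands of 1 CACGTG, at -155 to -150. Mgll had GCGTG at 2 places before its upstream start, and ACGTG on both strands of 1 CACGTG at -44 to -39. Before its downstream start Mgll had ACGTG at 1 place and GCGTG at 6. G0s2 had GCGTG at 1 place. Over all 32841 promoter windows of this length, ACGTG occurs in 16.6% and GCGTG in 28.2%, on either strand. The median of those windows was 52.4% G and C bases, and the 6 shown held 60.0% to 65.2%. Member windows not shown ran from 48.4%, before the upstream Hilpda start, to 74.8%, before the downstream Mgll start. Shares over all windows, here and below, are therefore not matched for G and C, and no excess was tested. ACGTG is also contained in the E-box CACGTG, found in 6.02% of windows, in none of the 6 shown and once each in Lipe and Mgll.

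AGGNCA repeated in the same direction with 1 base between the copies, a form of the element bound by peroxisome proliferator-activated receptors, which are known activators of Plin2, matched no member's window and 0.338% of all windows. GGGCGG, the GC box, occurred at 3 places in Plin3, 2 in Pnpla2 and 1 in Abhd5, but also at 6 places in Lipe and at 1 each in G0s2, Mgll and the upstream Hilpda window, and is found in 32.7% of all windows. CCAAT occurred once each in Plin2, Plin3 and Plin4 and is found in 33.9% of all windows. None of the members' windows matched TATAAA (12.4% of all windows), TTGCNNAA (9.57%), TGATGNAA (3.45%), TGACGTCA (1.55%) or TCACNCCAC (1.05%). These are matches of letters in a short window, not binding sites.

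The coat genes Plin2, Plin3 and Plin4, the lipase gene Pnpla2, its coactivator Abhd5 and its inhibitor Hilpda were expressed at a lower level in knockdown. Of the 10 members, 7 had a mean of at least 1 FPKM over the 6 libraries and were tested, and 6 of these were lower, none was higher and 1, Lipe, did not pass the threshold (limma on log2(FPKM + 1), Benjamini-Hochberg adjusted p below 0.05 over 11652 genes). Among all tested genes 62.4% changed in either direction, 29.1% being lower and 33.3% higher, a balance that turned under some alternatives. Without mitochondrially encoded genes, rRNA and Gm23935, 3738 genes were lower and 3387 higher, and with no filter on low values 4122 were lower and 4001 higher, with 6 members lower and none higher in each. The median change of the 7 was -0.47 on the log2(FPKM + 1) scale, knockdown minus control, beside 0.03 for all tested genes. Since the members were chosen with earlier results known, the set beside all tested genes is a description and not a test. In all 6 lower members the 3 knockdown libraries lay below the 3 control libraries, as they did in 31.7% of tested genes. The 3 remaining members, Mgll, G0s2 and Fabp5, were too low to test. The summed level of the 10 members was 115 ± 8.12 FPKM in knockdown and 247 ± 31.7 FPKM in control (SD, n = 3 each). Plin2 was the largest part of both sums and supplied most of the difference between them.

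**Figure D1:**
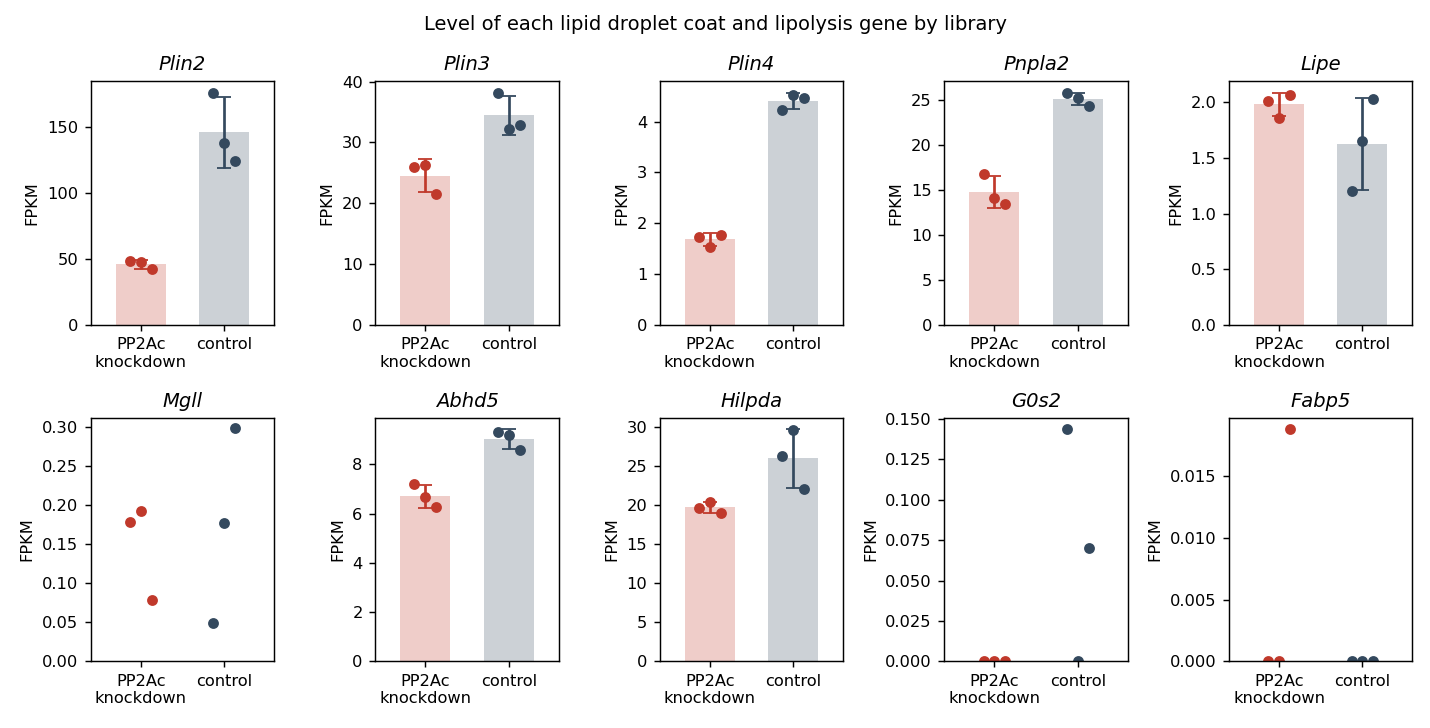
FPKM of each member in every library, knockdown left and control right; points are libraries, and for the 7 tested genes bars are means with SD (n = 3). The knockdown points lie below all control points for Plin2, Plin3, Plin4, Pnpla2, Abhd5 and Hilpda, while Lipe overlaps and Mgll, G0s2 and Fabp5 stay below 0.3 FPKM.

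Among the coat genes, Plin2 stood highest and differed most. Plin2 (ENSMUSG00000028494, chromosome 4, 86648386 to 86670060, minus strand, GRCm38) encodes perilipin 2, the coat protein that most non-adipose cells carry on their droplets and that is degraded when it is not bound to one. Its level was 48.0, 47.4 and 42.1 FPKM in the knockdown libraries, against 176, 138 and 124 FPKM in the control libraries. The knockdown libraries were close to each other, the control libraries spread more widely, and the groups were far apart. The mean was 45.8 ± 3.28 FPKM in knockdown and 146 ± 27.0 FPKM in control (SD, n = 3 each), so that 31.4% of the control level was left. The log2 change was -1.64 (SE 0.13, 95% interval -1.93 to -1.35, limma adjusted p = 2.4e-05), and 1.04% of tested genes had a lower value. These levels rest on 2207 to 2608 reads in knockdown and 7156 to 9900 reads in control.

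Plin3 encodes perilipin 3, a coat protein that shuttles between the cytosol and newly formed droplets. The gene (ENSMUSG00000024197, chromosome 17, 56277476 to 56292873, minus strand) had 25.9, 26.3 and 21.5 FPKM in the knockdown libraries, against 38.2, 32.2 and 32.9 FPKM in the control libraries. The knockdown libraries were all lower, by less than for Plin2. Its log2 change was -0.47 (SE 0.10, 95% interval -0.70 to -0.24, limma adjusted p = 0.0036), with 71.3% of the control level left.

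Plin4 (ENSMUSG00000002831, chromosome 17, 56100591 to 56109803, minus strand) encodes perilipin 4, best known from adipocytes and muscle, and was the scarcest of the 3 coat genes in the set. It had 1.72, 1.54 and 1.77 FPKM in the knockdown libraries, against 4.23, 4.53 and 4.47 FPKM in the control libraries. Both groups were tight and well separated. The log2 change was -1.02 (SE 0.09, 95% interval -1.21 to -0.82, limma adjusted p = 3.7e-05) and 38.0% of the control level was left. Plin2 and Plin4 were lower by more than 1 on the log2 scale, as were 4.81% of all tested genes. The gene shares 17 bases at its end with Hdgfl2 on the opposite strand, which had 24.6, 29.6 and 25.9 FPKM in knockdown and 21.7, 25.4 and 22.9 FPKM in control with a difference short of the threshold (limma adjusted p = 0.11). Plin3, Plin4 and Plin5 lie near each other on chromosome 17. Ticam1, the neighbour of Plin3 that encodes an innate immune adaptor, was higher in knockdown, with a log2 change of 0.39 (limma adjusted p = 0.0067), so the neighbours did not all move one way.

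Transcripts of the perilipin family were fewer in every knockdown library, and their makeup differed between the groups. Perilipin 1, the adipocyte coat protein that holds Abhd5 away from the lipase, and perilipin 5, the coat protein of oxidative tissues, are not among the 10 but complete the family. Plin1 had 1.32, 1.01 and 1.08 FPKM in knockdown (95, 72 and 75 reads), against 0.0403, 0.0832 and 0.0393 FPKM in control (3, 6 and 3 reads). It fell short of the level needed for the test, and with no filter on low values it was higher in knockdown with a log2 change of 1.02 (limma adjusted p = 0.00067). Plin5 stayed at or below 0.0642 FPKM in every library. Summed over the 5 genes, perilipin transcripts came to 73.2 ± 5.87 FPKM in knockdown and 185 ± 29.9 FPKM in control (SD, n = 3 each).

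Plin2 made up 62.4%, 62.2% and 63.3% of the perilipin sum in the knockdown libraries, against 80.6%, 78.9% and 76.8% in the control libraries. Plin3 made up 33.6%, 34.5% and 32.3% in knockdown, against 17.5%, 18.4% and 20.4% in control. The shares do not depend on library size, and for both genes the groups did not overlap. Plin1 supplied 1.56% ± 0.204 in knockdown and 0.0301% ± 0.0154 in control, and the share of Plin4 was 2.31% ± 0.331 in knockdown and 2.43% ± 0.439 in control (SD, n = 3 each), so its libraries overlapped.

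**Figure D2:**
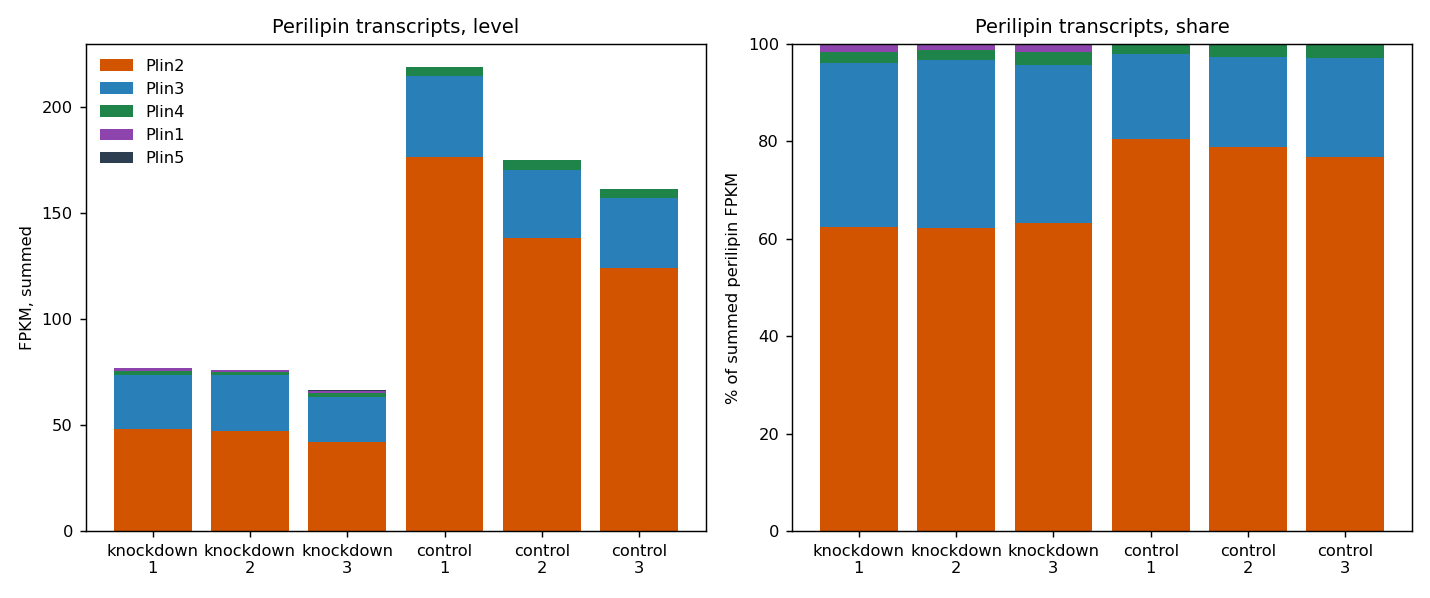
Summed FPKM (left) and percent share (right) of the 5 perilipin genes in each of the 6 libraries, knockdown first. The knockdown columns are shorter, 66.4 to 77.0 against 162 to 219 FPKM, and hold a smaller share of Plin2 and a larger share of Plin3.

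The lipase that starts lipolysis and its coactivator were both lower. Pnpla2 (ENSMUSG00000025509, chromosome 7, 141455198 to 141460743, plus strand), which encodes adipose triglyceride lipase, had 16.8, 14.0 and 13.4 FPKM in the knockdown libraries, against 25.7, 25.2 and 24.3 FPKM in the control libraries. The control libraries lay within a narrow range, above every knockdown library. The log2 change was -0.74 (SE 0.09, 95% interval -0.94 to -0.53, limma adjusted p = 0.0002), with 58.7% of the control level left. Abhd5 (ENSMUSG00000032540, chromosome 9, 122351608 to 122381524, plus strand), the coactivator of that lipase, had 7.19, 6.68 and 6.26 FPKM in knockdown, against 9.31, 9.19 and 8.57 FPKM in control. The groups were apart by a smaller margin, and the log2 change was -0.38 (SE 0.08, 95% interval -0.55 to -0.21, limma adjusted p = 0.0026), with 74.4% left. Its last 950 bases overlap A730085K08Rik on the opposite strand, which stayed at or below 0.155 FPKM in every library.

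Downstream of Pnpla2 the enzymes of lipolysis were scarce. Lipe (ENSMUSG00000003123, chromosome 7, 25379527 to 25398710, minus strand), the hormone-sensitive lipase gene, had 2.01, 1.86 and 2.07 FPKM in knockdown, against 1.20, 1.65 and 2.03 FPKM in control. The groups overlapped, because control library 3 reached the knockdown level. The log2 difference was 0.19 (SE 0.13, 95% interval -0.11 to 0.50) and missed the threshold (limma adjusted p = 0.24). The interval includes a rise of 0.50 on that scale, so a rise of that size cannot be told from none with these libraries. The whole gene lies within the span of 4732471J01Rik, an antisense gene on the other strand. That antisense gene had 0.418, 0.784 and 0.865 FPKM in knockdown and 1.07, 0.997 and 1.25 FPKM in control. Whether its exons overlap those of Lipe was not examined, and reads in any shared exon bases could be told apart only by strand. Mgll (ENSMUSG00000033174, chromosome 6, 88724412 to 88828360, plus strand) had 14, 15 and 6 reads in knockdown, against 4, 14 and 25 reads in control, or 0.178, 0.193 and 0.0791 FPKM and 0.0492, 0.178 and 0.300 FPKM. The libraries overlapped fully at this depth.

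The small lipase inhibitors were unequal in level. Hilpda (ENSMUSG00000043421, chromosome 6, 29272488 to 29275446, plus strand), a hypoxia-induced droplet protein that inhibits Pnpla2, had 19.6, 20.4 and 19.0 FPKM in the knockdown libraries, against 26.2, 29.5 and 22.1 FPKM in the control libraries. The knockdown libraries were nearly equal and lay below the lowest control library. The log2 change was -0.37 (SE 0.10, 95% interval -0.61 to -0.14, limma adjusted p = 0.013), and 75.9% of the control level was left. G0s2 (ENSMUSG00000009633, chromosome 1, 193272161 to 193273217, minus strand), the other inhibitor, had no read in any knockdown library, against 2, 0 and 1 reads in control. A library with no read allows up to 0.231 FPKM for this gene, the level of 3 reads, so no difference could be seen. G0s2 lies inside Lamb3 on the opposite strand, which had 1.14, 1.22 and 1.01 FPKM in knockdown and 0.643, 0.819 and 0.709 FPKM in control.

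Fabp5 (ENSMUSG00000027533, chromosome 3, 10012548 to 10016607, plus strand), which encodes a cytosolic carrier that delivers fatty acids within the cell, was at or near 0. It had 0, 0 and 1 reads in knockdown, against no read in any control library, where 3 reads would have given at most 0.0542 FPKM. The Fabp5 pseudogenes AC109261.2 and Fabp5l2, found by gene description, to which reads of Fabp5 could have been assigned, were also at 0 in all 6 libraries. How reads matching several of these genes were counted is not stated. Of the other fatty acid binding protein genes, Fabp1, Fabp6, Fabp9 and Fabp12 were at 0 throughout, and Fabp2, Fabp3, Fabp4 and Fabp7 stayed at or below 0.548 FPKM.

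**Figure D3:**
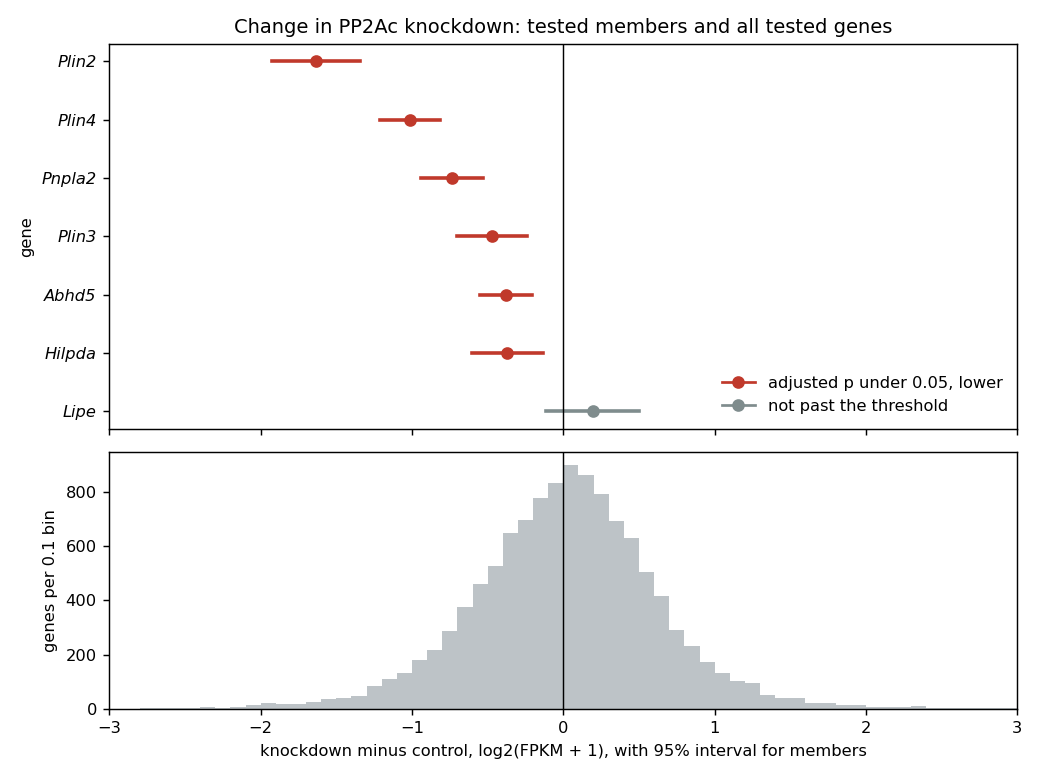
Upper panel, change of the 7 tested members, knockdown minus control, on the log2(FPKM + 1) scale with 95% intervals; lower panel, the same quantity for all 11652 tested genes (values beyond 3 not drawn). The intervals of 6 members lie below 0, from -1.64 for Plin2 to -0.37 for Hilpda, and that of Lipe spans 0.

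The order of levels differed in places. In knockdown it was Plin2, Plin3, Hilpda, Pnpla2, Abhd5, Lipe and Plin4, with no overlap between neighbours in that order. In control it was Plin2, Plin3, Hilpda, Pnpla2, Abhd5, Plin4 and Lipe, where the ranges of Hilpda and Pnpla2 overlapped and every other neighbouring pair was apart. Plin4 thus stood below Lipe in knockdown, at 1.68 ± 0.124 against 1.98 ± 0.106 FPKM, and above it in control, at 4.41 ± 0.158 against 1.63 ± 0.415 FPKM (SD, n = 3 each).

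Ratios within a library show how unequally members differed, whatever the library size. Plin2 over Plin3 was 1.86, 1.81 and 1.96 in the knockdown libraries, against 4.61, 4.28 and 3.77 in the control libraries, with no overlap. Plin2 over Hilpda was 2.45, 2.32 and 2.21 in knockdown, against 6.73, 4.68 and 5.62 in control, likewise without overlap. Plin2 over Plin4 was 27.9, 30.9 and 23.7 in knockdown, against 41.6, 30.5 and 27.8 in control, and the groups overlapped. The log2 difference of the ratio, knockdown minus control, was -1.17 for Plin2 over Plin3, -1.27 for Plin2 over Hilpda and -0.26 for Plin2 over Plin4. Plin4 over Plin3 was 0.0692 ± 0.0122 in knockdown and 0.129 ± 0.0160 in control (SD, n = 3 each).

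On the lipolysis side, Abhd5 over Pnpla2 was 0.429, 0.476 and 0.468 in knockdown, against 0.362, 0.365 and 0.352 in control, so there was more coactivator transcript per lipase transcript in every knockdown library. Hilpda over Pnpla2 was 1.35 ± 0.155 in knockdown and 1.03 ± 0.132 in control (SD, n = 3 each), and its groups were barely apart, 1.1714 being the lowest knockdown library and 1.1708 the highest control library. Lipe over Pnpla2 was 0.120, 0.133 and 0.155 in knockdown, against 0.0466, 0.0656 and 0.0834 in control, without overlap. Of the 8 ratios computed, 7 had groups that did not overlap and reached the smallest two-sided exact permutation p that 3 against 3 libraries allow, 0.1, with an adjusted p of 0.114, and Plin2 over Plin4 had p = 0.5 (adjusted p = 0.5), so none could pass the threshold in this design.

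**Figure D4:**
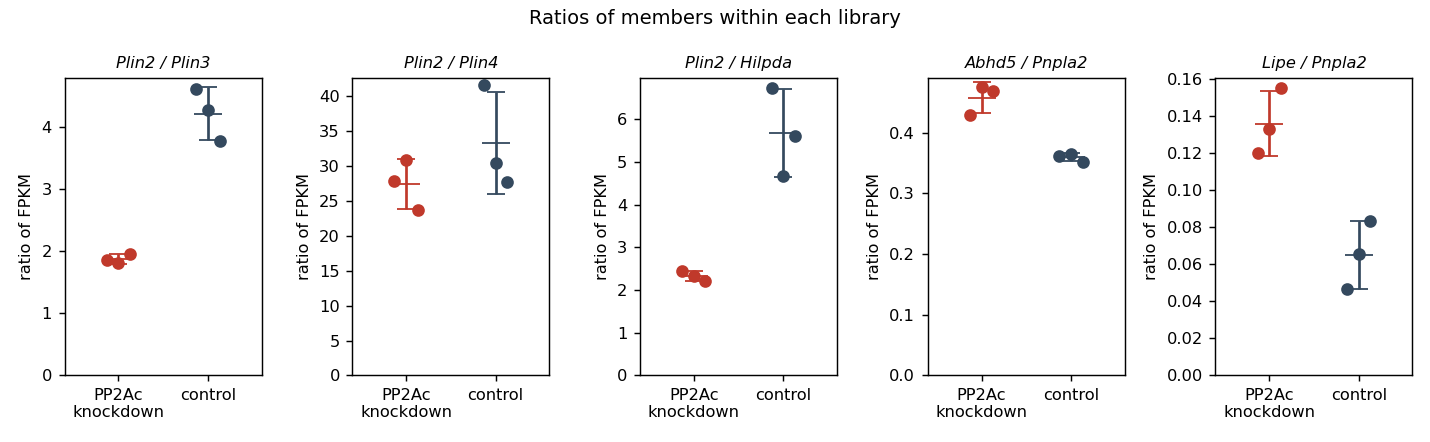
Ratios of FPKM between members within each library, knockdown left and control right, with mean and SD (n = 3). Plin2 / Plin3 and Plin2 / Hilpda lie lower in knockdown, Abhd5 / Pnpla2 and Lipe / Pnpla2 lie higher, and Plin2 / Plin4 overlaps.

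Other lipid droplet proteins went in both directions. Of 24 such genes 15 were tested, of which 8 were lower, 2 were higher and 5 missed the threshold, with a median log2 change of -0.25. Beside this and the lists that follow, 29.1% of all tested genes were lower and 33.3% higher. Lower genes included Dgat2, which makes triglyceride at the droplet surface, at 4.64 ± 0.715 FPKM in knockdown and 9.67 ± 1.33 FPKM in control, Fitm2, needed for droplets to bud from the endoplasmic reticulum, at 10.5 ± 0.306 FPKM in knockdown and 16.1 ± 1.01 FPKM in control, and Vps13a, a lipid transfer protein, at 1.74 ± 0.256 FPKM in knockdown and 3.70 ± 0.429 FPKM in control (SD, n = 3 each). Their limma adjusted p values were 0.00029, 0.00021 and 0.00047. The higher genes were the droplet-associated Mettl7a1, at 6.87 ± 1.28 FPKM in knockdown and 1.69 ± 0.107 FPKM in control, and Hsd17b11, at 21.3 ± 0.899 FPKM in knockdown and 10.8 ± 0.902 FPKM in control (SD, n = 3 each, limma adjusted p = 2.7e-05 and 3.4e-05). Dgat1, which makes triglyceride in the endoplasmic reticulum, had 14.1 ± 0.347 FPKM in knockdown and 13.3 ± 0.972 FPKM in control and did not pass (limma adjusted p = 0.38).

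Lipases and hydrolases outside the set were divided. Of 22 genes 13 were tested, of which 4 were lower, 6 were higher and 3 missed the threshold, with a median log2 change of 0.06. Lipa, the lysosomal acid lipase that breaks down droplets delivered by autophagy, was higher, at 15.3 ± 0.842 FPKM in knockdown and 7.58 ± 0.484 FPKM in control (limma adjusted p = 2.9e-05), opposite in direction to the cytosolic lipase Pnpla2. Abhd6, a monoglyceride hydrolase known in beta cells, was higher too, at 9.29 ± 1.40 FPKM in knockdown and 5.07 ± 0.528 FPKM in control (limma adjusted p = 0.00064), and far above Mgll, which acts on the same substrate. Abhd4 was higher, at 41.0 ± 3.93 FPKM in knockdown and 25.7 ± 0.793 FPKM in control (limma adjusted p = 0.00025). Dagla, a diacylglycerol lipase, was lower, at 5.19 ± 0.430 FPKM in knockdown and 8.74 ± 0.451 FPKM in control, as was Ddhd2, a triglyceride hydrolase known from neurons, at 6.49 ± 0.360 FPKM in knockdown and 9.84 ± 0.479 FPKM in control (SD, n = 3 each, limma adjusted p = 0.00021 and 0.00036). Lpl, Lipg, Aadac, Pnpla1, Pnpla3 and Pnpla5 were at 0 in every library.

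Genes that link cyclic AMP to lipolysis were mostly higher. Of 16 genes 10 were tested, of which 7 were higher, 2 were lower and 1 missed the threshold, with a median log2 change of 0.73. Over all tested genes, 33.3% were higher and 29.1% lower. Akap1, an anchor of protein kinase A, was at 19.4 ± 0.318 FPKM in knockdown and 8.58 ± 0.594 FPKM in control, and the regulatory subunit gene Prkar2b at 19.9 ± 1.10 FPKM in knockdown and 8.16 ± 0.688 FPKM in control. Prkar1b, another regulatory subunit, was at 12.1 ± 1.25 FPKM in knockdown and 4.66 ± 0.469 FPKM in control, and the catalytic subunit gene Prkaca at 75.4 ± 4.94 FPKM in knockdown and 47.6 ± 2.22 FPKM in control. The phosphodiesterase gene Pde4a was at 8.79 ± 0.592 FPKM in knockdown and 4.59 ± 0.440 FPKM in control (SD, n = 3 each). Adjusted p values of these 5 genes ran from 1.1e-05 for Akap1 to 0.00015 for Prkaca (limma).

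Genes for uptake, activation and binding of fatty acids included 3 that were lower, 3 that were higher and 1 that missed the threshold among 7 tested of 23 in the table, with a median log2 change of 0.29. Slc27a1, a fatty acid transport protein, was lower, at 35.0 ± 2.02 FPKM in knockdown and 78.0 ± 5.71 FPKM in control, and so was Acsl4, an acyl-CoA synthetase that prefers arachidonate, at 10.02 ± 0.828 FPKM in knockdown and 18.2 ± 1.37 FPKM in control (SD, n = 3 each, limma adjusted p = 1.4e-05 and 0.0001). Slc27a4, another transport protein, was higher, at 22.3 ± 2.21 FPKM in knockdown and 12.5 ± 0.0376 FPKM in control, as was Acsl5, at 41.0 ± 0.910 FPKM in knockdown and 30.4 ± 1.66 FPKM in control (limma adjusted p = 9.7e-05 and 0.00083). Dbi, the acyl-CoA binding protein, was at 50.5 ± 6.38 FPKM in knockdown and 32.2 ± 4.39 FPKM in control (SD, n = 3 each, limma adjusted p = 0.0025).

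Transcription factors known to act on the members also differed, 4 being lower, 5 higher and 2 short of the threshold among 11 tested of 16, and a median log2 change of 0.12. Hif1a, the hypoxia-inducible factor that activates Hilpda, was lower, at 11.5 ± 0.848 FPKM in knockdown and 23.1 ± 3.23 FPKM in control (limma adjusted p = 0.00015), and Cebpb, a factor of adipocyte differentiation, was lower at 119 ± 8.89 FPKM in knockdown and 210 ± 9.83 FPKM in control (limma adjusted p = 6.5e-05). Rxra, the partner of the peroxisome proliferator-activated receptors, was higher at 30.2 ± 1.61 FPKM in knockdown and 15.1 ± 0.188 FPKM in control, the lipogenic factor Srebf1 at 95.5 ± 9.91 FPKM in knockdown and 46.1 ± 4.98 FPKM in control, and Tfeb, an activator of lysosomal genes, at 6.64 ± 0.841 FPKM in knockdown and 2.79 ± 0.376 FPKM in control (SD, n = 3 each, limma adjusted p = 1.4e-05, 8.7e-05 and 0.00013). Ppara was at 0 in every library and Pparg did not exceed 0.0221 FPKM, while Ppard had 9.09 ± 1.22 FPKM in knockdown and 10.9 ± 1.00 FPKM in control and did not pass (limma adjusted p = 0.079).

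**Figure D5:**
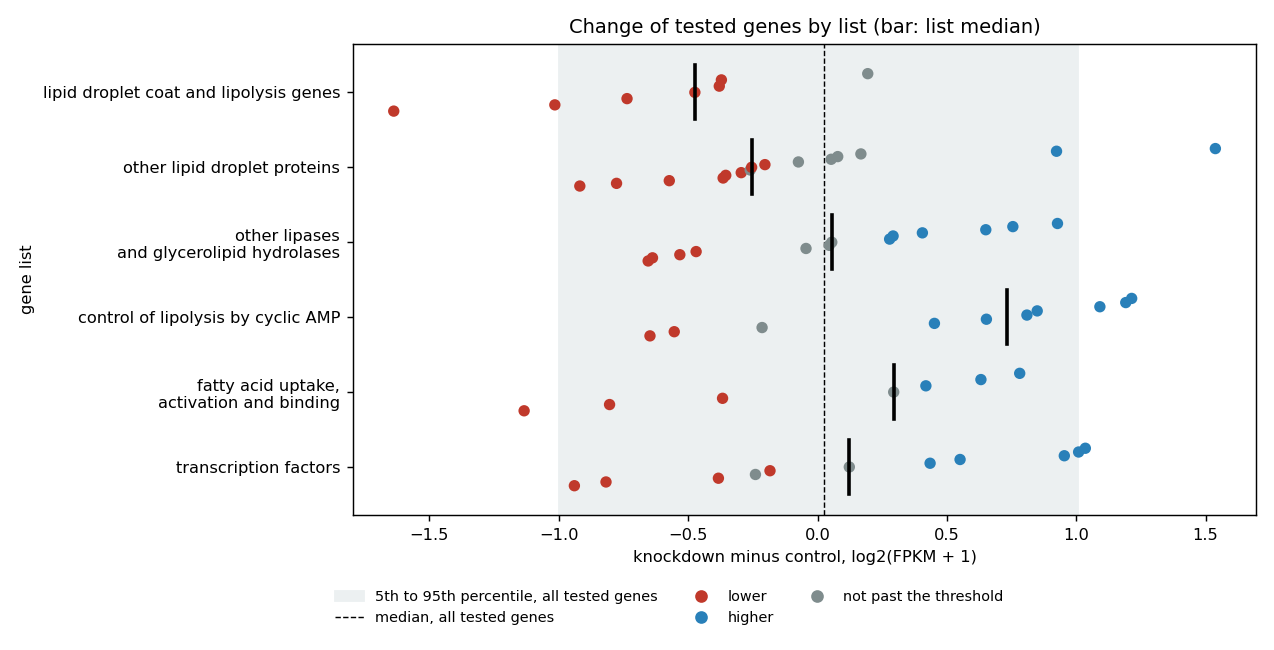
Change of each tested gene, knockdown minus control, on the log2(FPKM + 1) scale, by list, with the list median as a black bar and the 5th to 95th percentile of all tested genes in grey. The droplet coat and lipolysis genes have a median of -0.47, the other droplet proteins -0.25 and the cyclic AMP genes 0.73, against 0.03 for all tested genes. All lists were chosen with earlier results of these data known.

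No source says that the 3 libraries of a group came from separate cultures, so the p-values measure the spread between these libraries, which may be technical.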

How the data were processed

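The authors deposited FPKM values for 54532 Ensembl genes in 6 libraries, with gene length, position and strand, per the file headers. Genome builds are GRCm38 and mm10, per the submitters' processing notes. The aligner, the counter and any use of strand were not stated there. FPKM times gene length was a whole multiple of the value of 1 read for 100% of non-zero values (tolerance 0.01 read), which gave the reads per gene. The library size implied by 1 read equalled the recovered total scaled by median-of-ratios factors to within 4.4e-10%, so the deposited FPKM already carry that scaling. Gene positions and lengths of all 10 members equal those of GENCODE M21, the length being that of all exons joined.

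Groups were compared with limma 3.58.1 (R 4.3.3), using a trended eBayes fit on log2(FPKM + 1), in the 11652 genes with a mean of at least 1 FPKM over the 6 libraries. Changes are knockdown minus control, which this scale understates for low genes. P-values were adjusted by Benjamini-Hochberg over all tested genes, with a threshold of 0.05. The fit was tested on simulated data. Single ratios were compared by a two-sided exact permutation test; the ratios were chosen after the values were seen. Every member is named, and from each further list the 5 tested genes with the smallest p; other genes named were chosen after their values were seen. Members and lists were chosen with earlier results of these data known. Levels of 3 reads, and reads themselves, cover counting error only. Motifs were searched on both strands of 250 bases before RefSeq starts. Tables and plots were made with Python 3.11.15, numpy 2.4.6, pandas 2.3.3, scipy 1.17.1 and matplotlib 3.10.9. Alternatives were other pseudocounts (0.1 and 0.01), filters, scalings, variance models, voom on recovered reads, omission of each library and a replicate block.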

Additional observations from a re-analysis of the deposited data

How the results depend on the processing

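Under the 18 alternatives the tested members kept their direction and their side of the threshold, though Plin4 and Lipe are not tested at a mean of at least 5 FPKM. Over them Plin2 ranged from -1.75 to -1.50, Plin4 from -1.39 to -0.98, Pnpla2 from -0.83 to -0.67, Plin3 from -0.55 to -0.38, Abhd5 from -0.45 to -0.34, Hilpda from -0.48 to -0.28 and Lipe from 0.07 to 0.31, with adjusted p up to 0.042 for Hilpda and down to 0.086 for Lipe. With a mean of at least 5 FPKM, 2208 genes were lower, against 3388, since 7728 genes in place of 11652 were tested. Leaving out each library gave 6462 to 6950 changed genes, against 7267, and 6 lower members each time. Median-of-ratios scaling changed nothing, as the values already carry it. The replicate numbers are not known to pair the libraries: same-numbered libraries deviated together with correlations of -0.01, 0.16 and 0.05, and knockdown library 1 correlated best with control library 3 (0.13). With the number as a block, 7363 genes changed and 6 members were lower. With 3 libraries a group and single reads, Mgll, G0s2 and Fabp5 give no comparison.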

Other observations

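Cebpa, which encodes a transcription factor of adipocyte differentiation and was chosen after its values were seen, had 59, 61 and 43 reads in the knockdown libraries, against no read in any control library. These reads correspond to 1.45, 1.51 and 1.09 FPKM in knockdown, where 3 reads in a control library would give at most 0.0734 FPKM. With no filter on low values it was higher in knockdown (limma adjusted p = 0.00058), as was Plin1, while the adipocyte markers Adipoq, Retn and Fabp4 stayed at or below 0.0848 FPKM in every library.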
